A study of Mus musculus with 12 samples.

Results

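Cholesterol synthesis, uptake and their control by SREBP2 were followed through 30 genes in mouse primary hepatocytes. Rows were taken by gene symbol from a list of 30 genes, and all 30 were found among the 22471 features of the deposited tables. They comprised 9 enzymes from acetyl-CoA to squalene (the mevalonate pathway), 11 enzymes from squalene to cholesterol, 1 enzyme of the isoprenoid branch, 4 genes of SREBP2 control, and 5 genes of sterol transport, receptor turnover and esterification. HMG-CoA reductase, which makes mevalonate, and the lipoprotein receptors were not on this list.

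Hepatocytes make cholesterol from acetyl-CoA through mevalonate, isoprenoid diphosphates, squalene and lanosterol, and they also take it up from lipoproteins. When sterol in the membrane of the endoplasmic reticulum is low, Scap escorts the transcription factor SREBP2, encoded by Srebf2, to the Golgi, where it is cut and released to the nucleus. Insig proteins hold Scap back when sterol is plentiful, and Insig1 is itself an SREBP target.

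The 12 libraries fell into 4 groups of 3 replicates: control (Con), oleic acid (OA, a monounsaturated fatty acid that loads hepatocytes with lipid, ConOA), benzbromarone (BBR, a uric acid-lowering drug, BBR), and both agents together (BBR+OA, BBROA). The series asked how BBR acts on lipid accumulation in hepatocytes loaded with fatty acid. Cells came from collagenase-perfused livers of male C57BL/6J mice, and OA was given bound to albumin. The study does not say whether cells without OA also received albumin. Effects of the fatty acid and of its carrier therefore cannot be told apart, and OA below stands for both. The labels give liver as the source, describe the replicates as biological, and do not say whether they came from separate mice, so that the p-values measure the spread between labelled replicates.

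Each library held 15485508 to 23668379 estimated counts over 14745 to 15148 detected features. Mitochondrial transcripts took 5.50% to 6.07% of the counts in control and 6.34% to 6.89% in BBR libraries, which did not overlap, and 5.63% to 6.28% in OA and 6.09% to 6.59% in BBR+OA libraries, which did. All 8 hepatocyte markers were detected in every library, with a summed level of 33754 to 40428 CPM (counts scaled to library size after TMM normalisation), and the lists for Kupffer, endothelial and stellate cells summed to between 24.2 and 70.1 CPM. These sums hid single markers that moved. Alb made up most of the hepatocyte sum (mean 28117.5 CPM in control). With BBR against control Alb was higher in every library, and 4 of the 8 hepatocyte markers were lower (Fgb, Hnf4a, Ass1 and Tat). Mean Fgb fell from 2149 to 1217 CPM. With OA against control, 4 hepatocyte markers were higher in every library (Alb, Ttr, Ass1 and Tat) and 2 lower (Fgb and Hnf4a). With BBR+OA against OA, Ttr was higher and Fgb lower. With BBR+OA against BBR, 5 hepatocyte markers were higher (Alb, Fgb, Hnf4a, Ass1 and Tat) and 1 lower (Serpina1c). Of 9 Kupffer markers, 2 were higher in every library with OA against control (Marco, from 1.20 to 6.89 CPM, and Adgre1, from 2.40 to 6.36 CPM). Another 6 were lower in every library. With BBR+OA against BBR, 2 Kupffer markers were higher (Adgre1 and Marco) and 3 lower (Clec4f, C1qa and C1qc). With BBR against control 3 of 8 endothelial markers were higher (Pecam1, Cdh5 and Kdr) and 1 lower (Lyve1). With BBR+OA against BBR, 2 were higher (Stab2 and Lyve1) and 3 lower (Pecam1, Cdh5 and Kdr). The summed level of the 5 cholangiocyte markers was 590 to 722 CPM in control, 391 to 422 in BBR, 242 to 272 in OA and 199 to 240 CPM in BBR+OA libraries. Spp1 made up most of the sum and fell from a mean of 613 to 343 CPM with BBR, whereas Sox9 (32.3 to 48.9 CPM), Krt19 (6.91 to 11.2) and Epcam (1.86 to 3.53) were higher in every BBR library than in any control library. Krt7 was at 0 in all 3 control libraries. Epcam, Sox9 and Spp1 were lower in every BBR+OA library than in any BBR library. Over all genes tested, groups did not overlap in 41.5% for BBR against control and 52.2% for OA against control. The share was 23.9% for BBR+OA against OA and 49.6% for BBR+OA against BBR. The part of these markers and of the mitochondrial share in the results below was not tested. In bulk libraries, fewer cells of a type and less RNA per cell cannot be told apart.

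Start-site sequences are shown for the genes on which the results turn. RefSeq windows (GRCm38.p6, 250 bases before to 50 after the start) matched 23 of the 30 genes. A sterol regulatory element, spelled TCACNCCAC and sought on both strands, was found in 1 of the 23 (Hmgcs1) and in 1.44% of 27025 genes with such a window. CCAAT, the letters to which NF-Y binds and which often lie near SREBP sites, was found on either strand in 21 of the 23 (91.3%) and in 41.06% of all genes with a window. Acat2 and Scap were the members without it. A match is only a description of the letters, and a missing match says nothing of the factor. Below are the 250 bases before the RefSeq start of Hmgcs1 (chr13:119690101-119690350, plus strand) and part of those before that of Insig1 (chr5:28071162-28071362, plus strand). The Insig1 stretch was cut to 201 bases because GENCODE starts the gene at 28071363, inside the RefSeq window, and positions in the plot count from the RefSeq start. Matches are in capitals.
Hmgcs1: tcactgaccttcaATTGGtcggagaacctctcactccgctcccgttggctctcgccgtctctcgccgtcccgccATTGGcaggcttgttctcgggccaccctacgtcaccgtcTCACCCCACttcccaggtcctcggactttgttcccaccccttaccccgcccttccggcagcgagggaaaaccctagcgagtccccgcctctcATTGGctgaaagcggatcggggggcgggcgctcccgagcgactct
Insig1: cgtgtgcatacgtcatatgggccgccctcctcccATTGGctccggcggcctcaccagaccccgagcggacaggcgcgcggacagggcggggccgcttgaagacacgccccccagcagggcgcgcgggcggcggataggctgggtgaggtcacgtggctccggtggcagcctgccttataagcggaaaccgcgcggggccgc

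The next 7 stretches hold a CCAAT match (capitals, read on the strand of the gene, so that ATTGG is a match on the opposite strand). They set 4 genes whose BBR response depended on OA (Mvd, Lss, Hsd17b7 and Sc5d) beside 3 for which no such dependence was called (Insig2, Ebp and Nsdhl).
Mvd (chr8:122443462-122443498, minus strand): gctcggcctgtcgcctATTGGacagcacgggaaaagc
Lss (chr10:76531527-76531563, plus strand): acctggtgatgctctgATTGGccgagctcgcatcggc
Hsd17b7 (chr1:169969258-169969294, minus strand): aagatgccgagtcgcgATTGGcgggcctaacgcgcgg
Sc5d (chr9:42264304-42264340, minus strand): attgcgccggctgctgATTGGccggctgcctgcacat
Insig2 (chr1:121332615-121332651, minus strand): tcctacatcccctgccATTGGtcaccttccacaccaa
Ebp (chrX:8193547-8193583, minus strand): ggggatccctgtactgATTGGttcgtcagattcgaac
Nsdhl (chrX:72918396-72918432, plus strand): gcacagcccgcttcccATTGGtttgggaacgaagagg

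All 12 genes with a window and a called dependence on OA held a CCAAT match, as did 9 of the 11 with a window and no such call. Of the 3 genes that BBR alone lowered, Acat2 held no match and Acat3 and Soat2 had no window. The plot of match positions shows where they lie.

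**Figure D1:**
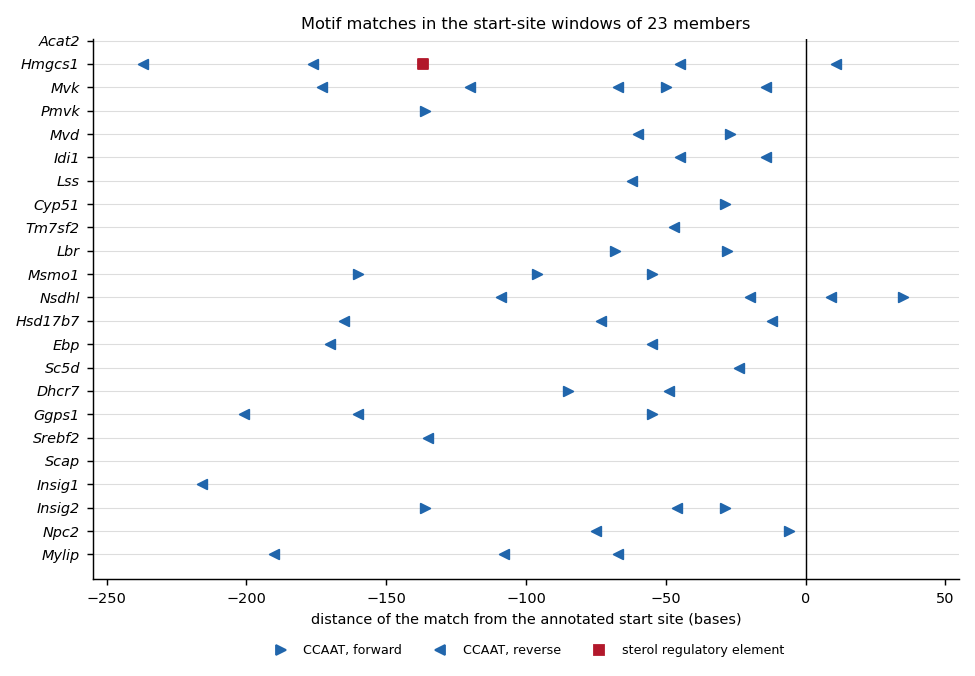
Position of CCAAT matches (triangles, pointing right for the strand of the gene and left for the opposite strand) and of the sterol regulatory element (square) relative to the annotated start site, in bases, for the 23 members with a RefSeq window. Matches are present in 21 rows, Acat2 and Scap are empty, and the square of Hmgcs1 lies 137 bases before its start.

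Levels between genes were compared per length, in FPKM as the authors deposited it. In control libraries the highest mean was that of Fdps, the farnesyl diphosphate synthase, at 269.9 FPKM, followed by Insig2 at 128, Msmo1 at 114 and Hmgcs1 at 100.3 FPKM. Of the 30 genes, 25 reached at least 10 FPKM. Mylip, the ubiquitin ligase that marks lipoprotein receptors for degradation, was the lowest at 0.16 FPKM, and its log2 fold changes had standard errors of 0.35 to 0.42. All 30 passed the filter on low counts in every comparison.

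BBR without OA raised 13 of the 30 genes and lowered 3 against control (edgeR quasi-likelihood test, adjusted p under 0.05). Of all 12555 genes tested, 27.7% were called, 13.2% higher and 14.5% lower. The 30 members and the other gene lists were chosen with earlier results of these data known. Their shares beside those of all genes, here and below, are therefore only a description. The 20 synthesis enzymes had 10 higher and 2 lower with a median log2 fold change of 0.15, and the 9 control and transport genes had 3 higher and 1 lower with a median of 0.14, while the median of all genes was -0.00085. Insig1 had the largest rise of the called members, and Acat3 the largest fall, to 0.526 of the control mean. In 19 of the 30 genes the groups did not overlap, 16 higher and 3 lower, where this held for 41.5% of all genes (19.2% higher and 22.3% lower).

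Insig1 measured 101, 115 and 112 CPM in the control libraries and 195, 236 and 209 CPM in the BBR libraries. Every BBR library lay above every control library, and the means were 109 ± 7.06 and 214 ± 20.8 CPM (SD, n = 3). The rise was 0.97 on the log2 scale (adjusted p = 3.08e-08, SE 0.064). Insig2, the related anchor, rose far less, from 158 ± 12.1 to 183 ± 8.45 CPM (log2 fold change 0.21, adjusted p = 0.00911). Srebf2 itself was at 139 ± 9.26 and 146 ± 2.70 CPM and Scap at 101 ± 3.60 and 96.8 ± 4.04 CPM, and neither difference passed the test (adjusted p = 0.274 and 0.486).

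Among the enzymes after squalene, 7 of 11 rose and none fell. Lbr, a sterol reductase that also anchors the nuclear lamina, went from 21.2, 20.3 and 19.4 CPM in control to 26.1, 27.0 and 28.8 CPM in BBR libraries (log2 fold change 0.43, SE 0.069). Msmo1, the methylsterol monooxygenase, went from 221, 235 and 221 to 275, 318 and 276 CPM (0.37, SE 0.056). Both genes had no overlap between groups. Lss, which closes the sterol rings, Hsd17b7, a ketoreductase of sterol demethylation, Sc5d, a sterol desaturase, Sqle, the squalene epoxidase, and Cyp51, the lanosterol demethylase, rose by 0.18 to 0.31 on the log2 scale. Tm7sf2, Nsdhl, Ebp and Dhcr7 had log2 fold changes of -0.13, -0.018, -0.069 and 0.011 and did not pass the test.

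The mevalonate enzymes were divided. Mvd, the mevalonate diphosphate decarboxylase, measured 18.6, 20.3 and 19.1 CPM in control and 22.0, 22.9 and 24.1 CPM in BBR libraries (log2 fold change 0.26, adjusted p = 0.0129). Fdps and Pmvk, the phosphomevalonate kinase, also rose (0.20 and 0.18). Hmgcs1, the HMG-CoA synthase, Idi1, the isopentenyl diphosphate isomerase, Fdft1, the squalene synthase, and Mvk, the mevalonate kinase, lay between 0.036 and 0.12 without passing the test.

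The genes that fell were Acat3 and Acat2, thiolases that join acetyl-CoA units at the entry to the pathway, and Soat2, which esterifies cholesterol. Acat3 measured 95.4, 93.2 and 87.6 CPM in control and 50.4, 44.3 and 49.3 CPM in BBR libraries (-0.93 on the log2 scale, SE 0.057, adjusted p = 1.79e-08). Soat2 measured 17.1, 19.4 and 19.4 against 13.3, 16.1 and 15.7 CPM (-0.31, SE 0.089, adjusted p = 0.0152). In both genes the highest BBR library was below the lowest control library. Of the other transport genes, Npc2, a carrier of cholesterol out of lysosomes, rose (0.17, adjusted p = 0.0204), and Npc1, its partner, and Stard4, a sterol carrier of the cytosol, had log2 fold changes of 0.0068 and 0.14 that did not pass.

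Of these 16 calls, 8 were kept with any single library left out: Acat3, Sqle, Lss, Lbr, Msmo1, Hsd17b7, Sc5d and Insig1. The number called was 11 without control replicate 1 or without BBR replicate 2, the library with the fewest counts. Without BBR replicate 2 the calls of Pmvk, Fdps, Cyp51, Insig2 and Npc2 were lost (adjusted p = 0.196, 0.0511, 0.0541, 0.0515 and 0.121). Without control replicate 1 those of Acat2, Pmvk, Mvd, Insig2 and Npc2 were lost (0.0503, 0.138, 0.05004, 0.0519 and 0.0884). Pmvk was also lost without control replicate 3 (0.111) and BBR replicate 3 (0.0627), Mvd and Acat2 without BBR replicate 3 (0.0602 and 0.0544), and Soat2 without control replicates 2 or 3 or BBR replicate 1 (0.0575, 0.0619 and 0.0891). A fit over all 12 libraries ended the calls of Pmvk and Npc2 (0.0662 and 0.0751), and DESeq2 that of Pmvk (0.0981).

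**Figure D2:**
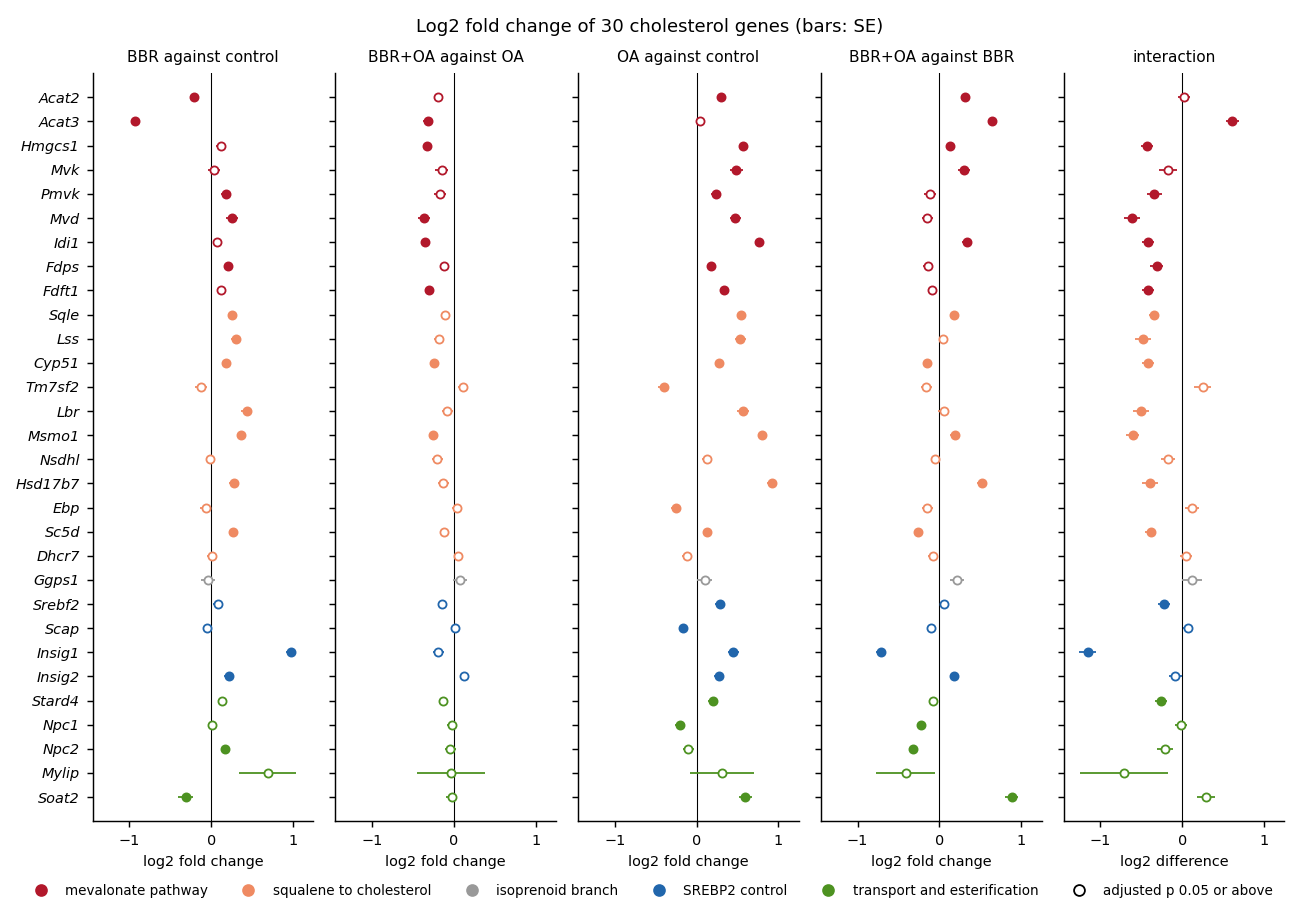
Log2 fold change (horizontal axis, bars SE, 3 libraries per group) of each of the 30 genes in the 4 comparisons, and the interaction (log2 BBR effect with OA minus that without). Filled points passed the test at an adjusted p under 0.05. With OA present the 7 filled BBR points all lie left of 0, and with OA against control 20 filled points lie right of 0.

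In cells given OA, BBR lowered 7 of the 30 genes and raised none. Of all 12278 genes tested, 4.59% were called, 1.95% higher and 2.63% lower. Groups did not overlap in 13 members, 1 higher and 12 lower, and in 23.9% of all genes (12.1% higher and 11.8% lower). The 7 genes were all synthesis enzymes: Acat3, Hmgcs1, Mvd, Idi1 and Fdft1 of the mevalonate pathway, and Cyp51 and Msmo1. All 9 mevalonate enzymes had a negative log2 fold change, with a median of -0.31, and the 11 later enzymes had a median of -0.12. None of the 9 control and transport genes passed in this fit, and their median was -0.034, with all genes at -0.00031. With the replicate number as a block, Insig1 and Srebf2 of these genes also passed, both lower. Whether the 2 classes of genes differed was not tested.

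Idi1 measured 202, 204 and 201 CPM in the OA libraries and 164, 163 and 149 CPM in the BBR+OA libraries. The groups were well apart, with a fitted change of -0.35 (SE 0.049, adjusted p = 7.92e-04). Hmgcs1 measured 465, 483 and 433 CPM with OA and 384, 362 and 358 CPM with BBR+OA (-0.33, SE 0.052, adjusted p = 0.00228). Fdft1 measured 155, 168 and 152 CPM with OA and 127, 130.3 and 127 CPM with BBR+OA (-0.31, SE 0.050, adjusted p = 0.00266). For these enzymes, as for the other 4 that were called, no BBR+OA library reached the lowest OA library.

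Mvd fell from 27.2, 27.4 and 25.4 to 21.4, 19.8 and 21.03 CPM (log2 fold change -0.37, adjusted p = 0.00803). Msmo1 fell from 375, 407 and 394 to 332, 343 and 315 CPM (-0.25, adjusted p = 0.00983), and Cyp51 from 380.4, 419.9 and 379 to 324, 341 and 333 CPM (-0.24, adjusted p = 0.0137). These 3 genes had risen with BBR in the absence of OA. Their calls in the presence of OA each rested on single libraries: Mvd was lost without BBR+OA replicate 2 (adjusted p = 0.0561), Msmo1 without OA replicate 2 (0.0672) or BBR+OA replicate 3 (0.0849), and Cyp51 without OA replicate 2 (0.0799) or any BBR+OA replicate (0.0514 to 0.0779). The calls of Acat3, Hmgcs1, Idi1 and Fdft1 were kept with any single library left out. The number of members called was 11 without OA replicate 3, when Nsdhl, Lss, Srebf2 and Insig1 were added, all lower (adjusted p = 0.0164, 0.0429, 0.0235 and 0.0346). It was 5 when OA replicate 2 or either of BBR+OA replicates 2 and 3 was left out.

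Insig1 measured 142, 166 and 136 CPM with OA and 129, 134 and 126 CPM with BBR+OA. The groups did not overlap, but the log2 fold change of -0.19 did not pass the test (adjusted p = 0.112). Acat3 was the only member called lower by BBR both without and with OA, at 98.3, 93.1 and 91.5 CPM with OA and 76.9, 75.0 and 74.7 CPM with BBR+OA (-0.32, adjusted p = 0.00174). Soat2 measured 28.1 ± 1.27 and 27.6 ± 0.690 CPM, which did not pass the test (-0.029, SE 0.065, adjusted p = 0.856).

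**Figure D3:**
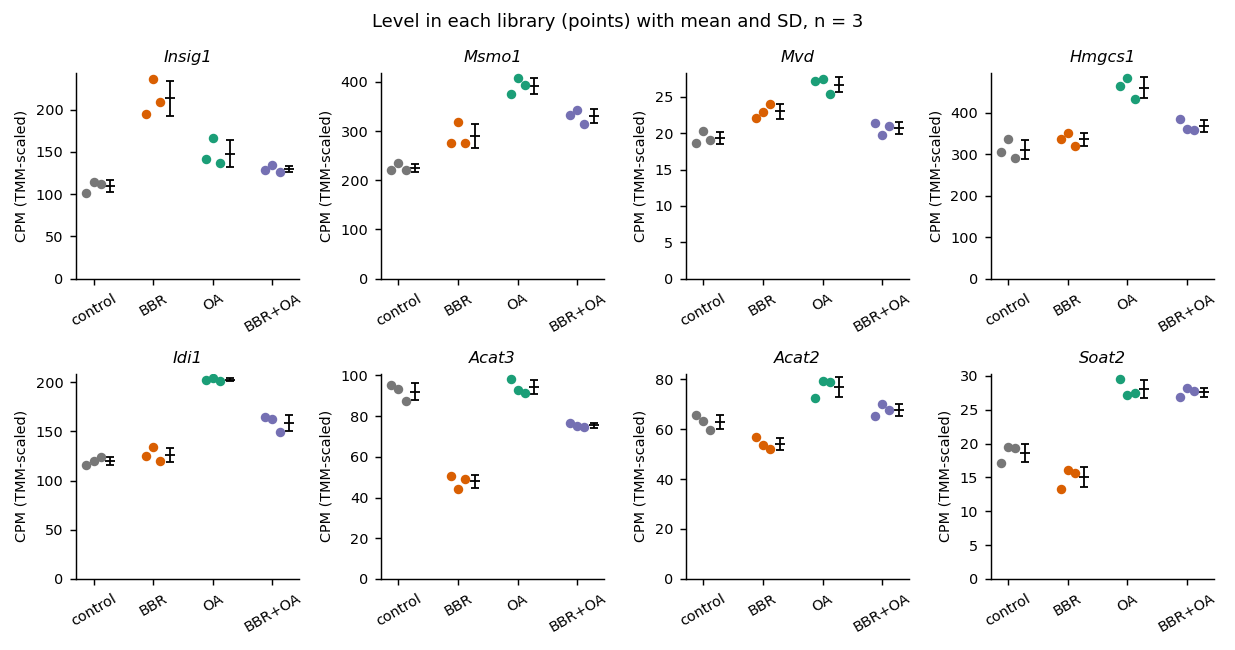
Level in CPM (TMM-scaled, axis from 0) of 8 members in each of the 12 libraries, with mean and SD beside the points (n = 3). Insig1 is highest in the 3 BBR libraries, Hmgcs1, Idi1, Mvd and Msmo1 are highest in the 3 OA libraries, and Acat3 is lowest in the 3 BBR libraries.

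Whether the effect of BBR differed with and without OA was tested directly as an interaction over all 12 libraries. The difference was called for 17 of the 30 genes, 16 negative and 1 positive, where 12.2% of the 12742 genes tested were called, 5.31% negative and 6.87% positive. The 16 were 13 of the 20 synthesis enzymes and 3 of the 9 control and transport genes (Srebf2, Insig1 and Stard4). In each of the 16 the log2 fold change was above 0 without OA and below 0 with OA. Only 3 of them (Mvd, Cyp51 and Msmo1) were called in both BBR comparisons, and Srebf2 and Stard4 were called in neither. The share of all genes with this change of sign was not computed. The median interaction was -0.37 over the synthesis enzymes, -0.21 over the control and transport genes and 0.012 over all genes.

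Insig1 had the largest interaction of the called members at -1.16 (SE 0.10, adjusted p = 4.63e-06), with a rise of 0.97 without OA beside a value of -0.19 with OA. Among the negative values Mvd followed at -0.61 (SE 0.094, adjusted p = 2.90e-04), Msmo1 at -0.61 (SE 0.079, adjusted p = 7.45e-05), Lbr at -0.51 and Lss at -0.48. Hmgcs1, Fdft1, Idi1, Cyp51, Hsd17b7, Sc5d, Sqle, Pmvk and Fdps lay between -0.43 and -0.31. Hmgcs1 and Idi1 did not pass the test with BBR alone but were lower with BBR+OA than with OA. Lss, Lbr, Hsd17b7, Sc5d and Sqle rose with BBR alone and did not pass the test in the presence of OA.

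The positive interaction was that of Acat3 (0.62, SE 0.075, adjusted p = 4.25e-05), whose fall with BBR was larger without OA. Srebf2 was at the edge (-0.22, adjusted p = 0.0499): its call was lost without 10 of the 12 libraries in turn (adjusted p = 0.0529 to 0.128), all but control replicate 2 and OA replicate 3. Pmvk, Fdps and Stard4 also lost their calls without BBR replicate 2 (0.0851, 0.0571 and 0.0556). Stard4 did so without BBR replicate 3 (0.0715), OA replicate 1 (0.0504) and BBR+OA replicate 1 (0.0515), and Pmvk without control replicates 1 or 3, OA replicate 3, or BBR+OA replicates 1 or 2 (0.0501 to 0.0679). The other 13 calls were kept with any library left out. No interaction was called for Acat2, Mvk, Tm7sf2, Nsdhl, Ebp, Dhcr7, Ggps1, Scap, Insig2, Npc1, Npc2, Mylip or Soat2.

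**Figure D4:**
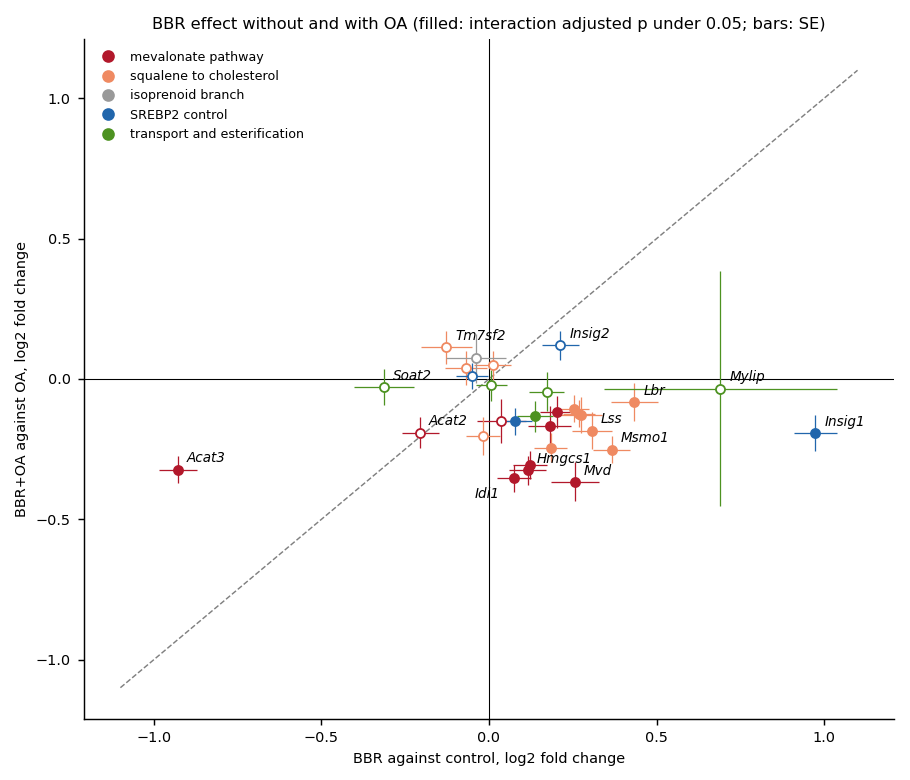
Log2 fold change by BBR without OA (horizontal) and with OA (vertical) for the 30 genes, with SE bars, from comparisons that share no library. The dashed line marks equal effects and filled points passed the interaction test. The 16 filled points at the lower right lie above 0 without OA and below 0 with it, and Acat3 lies below 0 on both axes. Of the 16, only Mvd, Cyp51 and Msmo1 passed the test in both BBR comparisons.

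OA without BBR raised 20 of the 30 genes against control and lowered 4, where 42.8% of all 12418 genes were called, 21.3% higher and 21.5% lower. This comparison shares its control libraries with BBR against control and its OA libraries with BBR+OA against OA, so that a high OA library enters both a rise with OA and a fall with BBR+OA. Of the synthesis enzymes 15 of 20 rose, with a median log2 fold change of 0.32. Of the 9 control and transport genes 5 rose and 2 fell, with a median of 0.27. The median of all genes was -0.0060. Groups did not overlap in 24 members, 20 higher and 4 lower, and in 52.2% of all genes (25.2% higher and 27% lower).

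Hsd17b7 had the largest rise, from 37.7, 35.5 and 33.6 CPM in control to 68.0, 71.7 and 61.5 CPM in OA libraries (0.92 on the log2 scale, SE 0.066, adjusted p = 9.995e-08). Msmo1 reached 375, 407 and 394 CPM from about 221 to 235 (0.80, SE 0.051), and Idi1 201 to 204 CPM from 116 to 124.5 (0.76, SE 0.047). Neither gene had overlapping groups. Hmgcs1, Lbr, Sqle, Lss, Mvk and Mvd rose by 0.47 to 0.57, and Fdft1, Acat2, Cyp51, Pmvk and Fdps by 0.18 to 0.33.

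Soat2 rose from 17.1, 19.4 and 19.4 to 29.5, 27.2 and 27.5 CPM (log2 fold change 0.60, adjusted p = 2.02e-05). In SREBP2 control, Insig1 rose by 0.45, Srebf2 by 0.28 and Insig2 by 0.27, and Scap fell by 0.17. Stard4 rose by 0.20. The enzymes that fell were Tm7sf2, from 45.3, 39.0 and 38.2 to 31.2, 29.8 and 31.0 CPM (-0.41, adjusted p = 4.19e-04), and Ebp, a sterol isomerase (-0.26, adjusted p = 0.00304). Tm7sf2 and Lbr both carry sterol reductase activity at the same step and moved in opposite directions. Npc1, the lysosomal cholesterol exporter, fell from 126, 128 and 120.1 to 110.4, 115 and 98.3 CPM (-0.20, adjusted p = 0.0113).

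Sc5d, with a log2 fold change of 0.13 (adjusted p = 0.0454), was lost without any control replicate or OA replicates 2 or 3 (adjusted p = 0.0561 to 0.164) and under upper quartile scaling (0.205) or no count filter (0.0650). Fdps and Scap were lost without control replicate 1 (0.0581 and 0.0664) or OA replicate 2 (0.0605 and 0.0566), and Npc1 without control replicate 2 (0.0570). Upper quartile scaling also ended the call of Fdps (0.0641). The other 20 calls were kept with any library left out. Under upper quartile scaling the members divided 18 higher and 5 lower, and the calls over all genes 2077 higher (39.2%) and 3216 lower, beside 2643 (49.8%) and 2668 under TMM.

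In the presence of BBR, OA raised 10 of the 30 genes and lowered 5, where 38.9% of all 12416 genes were called, 20.1% higher and 18.8% lower. Groups did not overlap in 20 members, 11 higher and 9 lower, and in 49.6% of all genes (25.3% higher and 24.3% lower). The synthesis enzymes had 8 higher and 2 lower with a median log2 fold change of -0.0051, at the median of all genes of -0.0061. The control and transport genes had 2 higher and 3 lower with a median of -0.10. Summed over the 20 enzymes, the level was 2331 ± 67.9 CPM in control, 3033 ± 105 with OA, 2562 ± 92.6 with BBR and 2622 ± 32.8 CPM with BBR+OA. The OA libraries (2971 to 3155 CPM) all lay above those of the other 3 groups (at most 2669 CPM).

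Insig1 fell from 195, 236 and 209 CPM with BBR to 129, 134 and 126 CPM with BBR+OA (-0.72 on the log2 scale, SE 0.060, adjusted p = 4.23e-07). The gene was thus called higher with OA in the absence of BBR and lower with OA in its presence, as were Cyp51 (-0.15) and Sc5d (-0.26). Soat2 rose from 13.3, 16.1 and 15.7 to 26.8, 28.2 and 27.8 CPM (0.88, SE 0.079, adjusted p = 8.61e-07), the largest rise here. Acat3 rose by 0.65, Hsd17b7 by 0.52, Idi1 by 0.33, Acat2 by 0.32, Mvk by 0.30 and Sqle by 0.18.

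The lysosomal pair fell together: Npc2 from 141, 159.8 and 146 to 112, 122 and 124 CPM (-0.32, adjusted p = 2.75e-04) and Npc1 from 123, 122 and 129 to 106, 105 and 107 CPM (-0.23, adjusted p = 4.63e-04). In both, all BBR+OA libraries lay below all BBR libraries. Hmgcs1 (0.13), Msmo1 (0.19), Insig2 (0.18) and Cyp51 lost their calls with single libraries left out. These were BBR replicates 1 or 3 and BBR+OA replicates 1 or 2 for Hmgcs1 (adjusted p = 0.0568 to 0.146), BBR replicates 1 or 3 and BBR+OA replicate 2 for Msmo1 (0.0578 to 0.0757), BBR replicate 1 and BBR+OA replicates 2 or 3 for Insig2 (0.0526 to 0.0620), and BBR replicate 2 and BBR+OA replicate 1 for Cyp51 (0.0651 and 0.0530). Hmgcs1 was also lost in a fit over all 12 libraries (0.0675), and Hmgcs1 and Msmo1 under upper quartile scaling (0.138 and 0.0516). Under that scaling the members divided 8 higher and 11 lower, and all genes 1976 higher (40.8%) and 2870 lower, beside 2496 (51.7%) and 2330 under TMM. Nsdhl, Dhcr7, Ggps1 and Mylip were called in none of the 4 comparisons and had no called interaction.

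**Figure D5:**
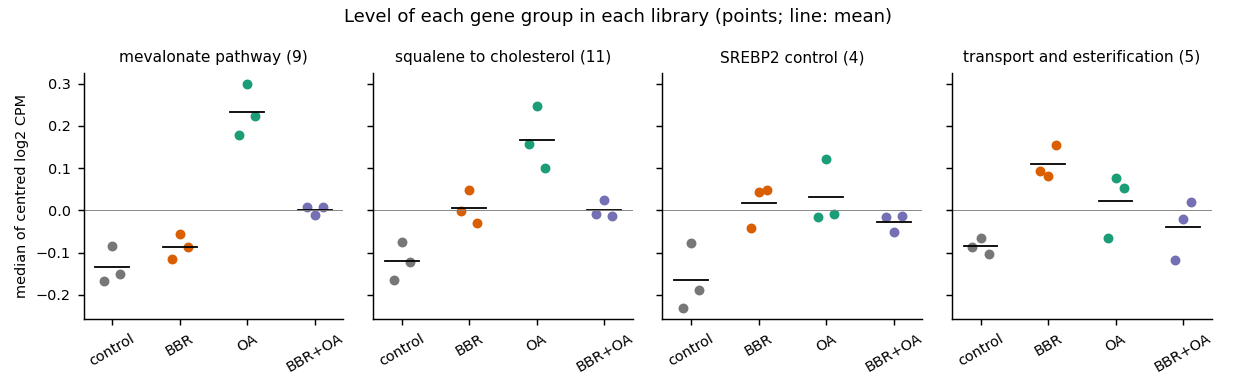
Median over the genes of each class of log2 CPM centred on the mean of the 12 libraries (vertical axis), 1 point per library, with a line at the group mean. The 3 OA libraries are highest for both synthesis classes. For transport and esterification the median is highest in the 3 BBR libraries, narrowly so (0.080 in BBR replicate 2, 0.077 in OA replicate 2). Soat2, the esterification gene of that class, was lowest in the BBR libraries.

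Acat2 and Acat3 were treated with care because they are near-copies. They lie next to each other on the minus strand of chromosome 17 (GRCm38, chr17:12942890-12960747 and chr17:12923813-12940600). Their coding sequences had 1164 of 1191 bases in common (97.73%), and 57.6% of the stretches of 100 bases in Acat2 occurred in Acat3. The first 120 coding bases of each are shown, with the 11 differing bases in capitals.
Acat2: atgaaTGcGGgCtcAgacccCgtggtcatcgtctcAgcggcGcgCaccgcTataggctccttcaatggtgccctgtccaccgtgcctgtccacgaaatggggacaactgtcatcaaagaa
Acat3: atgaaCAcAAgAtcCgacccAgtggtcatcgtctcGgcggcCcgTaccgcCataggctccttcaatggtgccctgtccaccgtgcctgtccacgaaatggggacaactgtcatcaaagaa

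Both genes had fractional counts in all 12 libraries, and Acat3 also shares 571 exonic bases with Tcp1 on the opposite strand. How reads were divided between the pair is therefore uncertain. Acat3 took 59.3% to 59.6% of the pair's summed CPM in control, 45.2% to 48.6% in BBR, 53.7% to 57.6% in OA and 51.8% to 54.1% in BBR+OA libraries. With the counts of the pair summed to 1 gene, the log2 fold change was -0.59 for BBR against control (adjusted p = 4.02e-07) and -0.26 for BBR+OA against OA (0.00311). OA gave 0.15 without BBR (0.0212) and 0.48 with it (1.04e-06), and the interaction was 0.34 (0.00156). The direction of each was that of Acat3 alone. Insig1 and Insig2 had 58.81% identity and no stretch of 50 coding bases in common. Fractional counts also occurred for Fdft1 in 12 libraries, Tm7sf2 in 7, Cyp51 in 3, Fdps in 2 and Npc1 in 1. With Acat3, 8 members share exonic bases with another coding gene. Among them were Fdft1 (774 with Ctsb, opposite strand), Fdps (1124 with Gm43738, same strand) and Tm7sf2 (532 with Vps51, same strand). The effect of this on their counts was not tested.

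A further 60 genes covered sterol processing, transport, efflux, isoprenoid use, and acetyl-CoA supply together with other enzymes such as Pcyt2 and Rdh11. Of these 60, BBR alone raised 11 and lowered 12 (38.3% called, beside 27.7% of all genes). With OA present BBR raised 2 and lowered 1 (5% called, beside 4.59% of all genes). Among called genes, the largest rises and falls with BBR alone were those of Vldlr, a lipoprotein receptor (log2 fold change 1.20, adjusted p = 5.21e-08), Srebf1, which encodes the related factor of fatty acid synthesis (0.36), Osbpl1a, an oxysterol-binding protein (-0.52), and Abca1, the cholesterol efflux pump (-0.34). With OA present they were Nceh1, a cholesteryl ester hydrolase (0.34), Scp2, a sterol carrier (0.22), and Aacs, which makes acetoacetyl-CoA from acetoacetate (-0.25).

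OA against control raised 17 of the 60 and lowered 14 (51.7% called, beside 42.8% of all genes), led by Vldlr (1.002), Pcyt2 of phospholipid synthesis (0.81), Gramd1b, a sterol transporter (-1.31), and Lrp1, a lipoprotein receptor (-0.77). BBR+OA against BBR raised 22 and lowered 10 (53.3%, beside 38.9%), led by Stard5, a sterol carrier (0.96), Osbpl1a (0.82), Gramd1b (-1.25) and Lrp1 (-0.58). The interaction was called for 14 of the 60 (23.3%, beside 12.2%), 9 positive and 5 negative. Vldlr (-1.05, adjusted p = 4.22e-05) and Rdh11, a retinal reductase (-0.28), had the largest negative values of these, and Osbpl1a (0.69) and Stard5 (0.42) the largest positive ones.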

How the data were processed

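RNA-seq of mouse primary hepatocytes covered 4 groups of 3 libraries, grouped by the titles in the labels. Poly(A) RNA was enriched, fragmented, copied from random primers and read on an Illumina HiSeq. The authors deposited, per library, an estimated count and an FPKM value for each of 22471 features. The build was mm10 per the submitters' processing notes, and the aligner and quantifier are not given in the sources used here. Counts were fractional for 2862 features and were rounded to whole numbers. CPM values were computed from the deposited counts after TMM scaling over the 12 libraries.

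Each comparison was fitted on its 6 libraries, and the interaction on all 12, with edgeR 4.0.16 (R 4.3.3): filterByExpr with a minimum count of 10, TMM, quasi-likelihood F-test, two-sided, with Benjamini-Hochberg adjustment over all genes tested and a threshold of 0.05. The code was tested on simulated data. All 30 members are described by role, and the further 60 pathway genes by counts, with the 2 largest called rises and 2 largest called falls named per comparison. The members and lists were chosen with earlier results of these data known. Alternatives were RLE and upper quartile scaling, other filters, DESeq2 1.42.0, a fit over all 12 libraries, a replicate block, a threshold of 0.01, summed Acat2 and Acat3 counts, and leaving out each library. Positions came from GENCODE M21 (GRCm38) and start-site windows from RefSeq. No protein sequences were used here.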

Additional observations from a re-analysis of the deposited data

Results flagged for a closer look

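The effect of BBR differed with and without OA, by the interaction term over 12 libraries (edgeR quasi-likelihood, Benjamini-Hochberg adjustment), for 17 of 30 members, where 12.2% of the 12742 genes tested were called. The log2 interaction was -1.16 for Insig1, an SREBP target that anchors Scap (higher in 3 of 3 BBR libraries without OA). Among mevalonate enzymes it was -0.61 for Mvd, -0.43 for Hmgcs1, -0.42 for Fdft1, -0.42 for Idi1, -0.34 for Pmvk and -0.31 for Fdps. Among the enzymes after squalene it was -0.61 for Msmo1, -0.51 for Lbr, -0.48 for Lss, -0.42 for Cyp51, -0.39 for Hsd17b7, -0.38 for Sc5d and -0.35 for Sqle. It was -0.26 for Stard4 and -0.22 for Srebf2, and 0.62 for Acat3, the only positive value. The adjusted p-values ran from 4.63e-06 for Insig1 to 0.0499 for Srebf2. Whether the change of Insig1 came through SREBP2 was not tested. The supplement of the study also cites reports of Insig1 induction by the nuclear receptor PPARδ and, in white adipose tissue, by rosiglitazone, a PPARγ agonist.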

How the results depend on the processing

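Over 2385 recomputed values of single members, 2247 stayed on their side of the threshold, 94 lost a call and 44 gained one. The sign changed in 25, all for members not called in that comparison. With each library left out in turn, the number of members called was 11 to 16 for BBR against control, 5 to 11 for BBR+OA against OA, 21 to 24 for OA against control, 12 to 15 for BBR+OA against BBR and 13 to 17 for the interaction. The median log2 fold change of the synthesis enzymes was then 0.11 to 0.19, -0.20 to -0.14, 0.28 to 0.35 and -0.039 to 0.022 in the 4 comparisons. For BBR+OA against BBR that median was -0.047 under upper quartile scaling, where the median of all genes also moved, from -0.0061 to -0.048. It was -0.056 with Acat2 and Acat3 summed, which leaves 1 value fewer in the list, beside -0.0051.

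With the replicate number as a block, BBR+OA against OA gave 14 members called, all lower and with Insig1 (adjusted p = 0.00943) and Srebf2 (0.0248) among them, beside 7, and 1333 genes in all beside 563. The fit of this comparison without the block gave 190 genes at a threshold of 0.01. With single libraries left out, and at the threshold of 0.05, that fit gave 216 to 632, with the lowest without BBR+OA replicate 3. Whether the replicate numbers pair the samples was not settled. Same-numbered samples correlated at 0.054 to 0.18 in their deviations, not all over 0.1. Each correlated best with its own number, and differently numbered samples reached at most 0.037. The main tests left the number out. With the block more genes were called in the other comparisons too: 4153 beside 3484 for BBR against control, and 6628 beside 5311 for OA against control. For BBR+OA against BBR it was 5281 beside 4826, and for the interaction 2265 beside 1551. The block moved no other count of members by over 1.5 times. Depth limits Mylip most, at 0.34 to 0.87 CPM.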
